A study of Mus musculus with 146 samples.

Results

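The genes of the subcortical maternal complex, Tle6, Ooep, Padi6, Nlrp5 and Khdc3, were followed in single germ cells of the newborn mouse ovary. The 5 members were taken by symbol from the 52605 gene symbols of the deposited tables, and all 5 were found. The cells came from the ovaries of C57/BL6J pups of a single litter at D0.5, with no genetic change and no treatment named. They were picked under the microscope and sequenced by Smart-seq2, a full-length method without molecular identifiers. The labels number each library as a separate cell, but some libraries matched closely, as given further on with Nlrp5. Levels are given in TPM, a relative level per length. Of 146 cells, all but 1 had at least 1 TPM of Ddx4, the germ cell helicase, and were kept. The labels name no animal for a cell, so the cells are 1 sample: shares carry exact (Clopper-Pearson) 95% intervals that cover counting error only, and no test was made across cells.

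The subcortical maternal complex is an assembly of maternal proteins that lies under the cortex of the egg and stays at the outer side of the early embryo, and mouse embryos that lack one of its main parts from the mother mostly stop at early cleavage. NLRP5, also known as MATER, is a member of the NLR family. OOEP, also known as FLOPED, and KHDC3, also known as FILIA, carry KH-like domains. TLE6 is a relative of the Groucho co-repressors. PADI6 belongs to the peptidylarginine deiminases and is needed for the fibrous lattices of the oocyte cytoplasm. These genes are best known as products of the growing oocyte, and FIGLA and NOBOX, factors that bind an E-box with a partner and a homeodomain site, act in oocytes at the time when follicles form.

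In GRCm38, Tle6 lies at chr10:81590904-81601073 on the minus strand, Ooep at chr9:78376109-78378725 on the minus strand, Padi6 at chr4:140727355-140742643 on the minus strand, Nlrp5 at chr7:23385889-23441922 on the plus strand and Khdc3 at chr9:73101836-73104438 on the plus strand. The 250 bases before the outermost RefSeq start of each gene in GRCm38.p6 were read because the members were common at different points of the same series of cells. These windows are chr10:81600901-81601150 for Tle6, chr9:78378589-78378838 for Ooep, chr4:140742644-140742893 for Padi6, chr7:23385639-23385888 for Nlrp5 and chr9:73102148-73102397 for Khdc3. The windows of Tle6, Ooep and Khdc3 overlap an untranslated exon of a GENCODE transcript. Shown are the whole windows of Padi6 and Nlrp5 and the stretches free of such exons of Ooep, chr9:78378726-78378838, and Khdc3, chr9:73102205-73102397, each 5′ to 3′ on the gene's strand. Capitals mark matches on either strand to the E-box letters CANNTG and the homeodomain letters TAATTG and TAATTA.
Ooep: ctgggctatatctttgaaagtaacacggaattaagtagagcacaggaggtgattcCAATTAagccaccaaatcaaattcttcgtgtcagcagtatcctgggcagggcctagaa
Padi6: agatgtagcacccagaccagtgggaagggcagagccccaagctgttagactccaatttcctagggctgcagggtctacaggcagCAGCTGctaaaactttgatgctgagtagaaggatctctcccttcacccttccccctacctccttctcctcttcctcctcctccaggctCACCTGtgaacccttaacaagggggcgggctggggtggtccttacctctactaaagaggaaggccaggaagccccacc
Nlrp5: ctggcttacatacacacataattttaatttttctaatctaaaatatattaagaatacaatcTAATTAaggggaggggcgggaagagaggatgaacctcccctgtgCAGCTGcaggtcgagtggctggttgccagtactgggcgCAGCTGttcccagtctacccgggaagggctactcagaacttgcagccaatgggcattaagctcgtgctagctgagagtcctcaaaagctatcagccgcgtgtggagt
Khdc3: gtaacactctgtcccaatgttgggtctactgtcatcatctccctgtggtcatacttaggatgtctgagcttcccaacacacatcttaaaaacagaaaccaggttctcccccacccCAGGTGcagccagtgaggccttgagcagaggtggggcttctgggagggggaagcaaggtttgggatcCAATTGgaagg

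All 5 windows held at least 1 CANNTG, as did 66.1% of the 27018 RefSeq promoter windows of this length. Tle6 had 2 matches, both CACGTG. Padi6 and Nlrp5 had 2 matches each, Ooep had 1, and Khdc3 had 5, of which a pair overlapped. TAATTG was found in Ooep alone among the members, read on the other strand, and in 7.34% of all windows. TAATTA was found in Nlrp5 alone, and in 4.91% of all windows. The TATA-box letters TATAAA were found in none of the 5 and in 13% of all windows. The G+C content ran from 48.8% in Nlrp5 to 67.2% in Tle6, against a median of 52% over all windows. These are matches of letters and not measured sites.

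The kept cells had between 4074810 and 26855273 reads assigned to genes, with a median of 9498860, and a median of 9175 genes at 1 TPM or more. Dazl, an RNA-binding protein of germ cells, was at 1 TPM or more in every kept cell, and the summed level of 4 germ cell markers had a median of 1728 TPM in the least advanced and 645 TPM in the most advanced of 5 bins of the order described further on, whose part in the members' rise was not tested. Foxl2, a pregranulosa factor, reached 1 TPM in 5 cells. The summed level of 7 pregranulosa markers had a median of 0.336 TPM and a highest value of 81.6 TPM, and 5 stroma markers had a median of 0.107 TPM and a highest value of 871 TPM. Globin RNA was wider spread: Hba-a1 had a median of 14.03 TPM, and the 7 blood or endothelial markers summed to a median of 41.3 TPM and up to 324516 TPM. The Spearman's rho with the members lay between -0.071 and 0.078 for the blood or endothelial sum, between -0.014 and 0.198 for stroma, between 0.052 and 0.138 for pregranulosa and between -0.445 and -0.027 for germ cell markers, lowest for Padi6. The library left out had no Ddx4 read, 1408459 reads in all, and pregranulosa markers at 87.6 TPM, and of the members it held Ooep alone, at 19.3 TPM.

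With a limit of 1 TPM, the members fell into a widely present pair and a trio found in fewer cells. Tle6 was detected, at 1 TPM or more, in 90.3% of the kept cells (interval 84.3 to 94.6%), and Ooep in 83.4% (76.4 to 89.1%). Padi6 was detected in 58 cells (40%, 32 to 48.5%), Nlrp5 in 40 (27.6%, 20.5 to 35.6%) and Khdc3 in 28 (19.3%, 13.2 to 26.7%). The intervals of Tle6 and Ooep lie above those of the other 3, while Tle6 overlaps Ooep, Padi6 overlaps Nlrp5, and Nlrp5 overlaps Khdc3. The shares of the trio depended on the limit: at 0.1 TPM they were 62.1% for Padi6, 38.6% for Nlrp5 and 29.7% for Khdc3, and at 1 estimated read 66.9%, 61.4% and 31.7%.

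Level and share of cells did not rank the genes alike. The mean level over all cells was 352 TPM for Tle6, 246 TPM for Padi6, 62.8 TPM for Ooep, 42.9 TPM for Nlrp5 and 24.4 TPM for Khdc3. In the cells where a gene was detected, the median was highest for Padi6, at 513 TPM, followed by Tle6 at 271 TPM, Khdc3 at 74 TPM, Nlrp5 at 55.8 TPM and Ooep at 32.2 TPM. Ooep was therefore found in many cells at a modest level, and Padi6 in fewer cells at a high one. The highest single cells had 2680 TPM of Padi6, 1837 TPM of Tle6, 999 TPM of Ooep, 915 TPM of Nlrp5 and 585 TPM of Khdc3.

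Padi6 values were split into a low and a high set. Of the 58 cells with Padi6, 44 held 100 TPM or more, 13 held 1 to 10 TPM and 1 lay between 10 and 100 TPM. A further 39 cells held a trace below 1 TPM and 48 held none. Ooep had no such gap, with 21 cells at 1 to 10 TPM, 75 at 10 to 100 TPM and 25 above. Khdc3 was at 0 in 99 cells and Nlrp5 in 56. The median estimated read count in detecting cells was 2438 for Tle6, 537 for Ooep, 8007 for Padi6, 1798 for Nlrp5 and 608 for Khdc3.

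To place the cells from less to more advanced, they were ranked by the first principal component of 18 genes that follow oocyte development, from synaptonemal complex and cohesin genes (Sycp2, Stag3) to zona pellucida genes (Zp1, Zp2, Zp3), with no member among them. The component held 38.4% of the variance of these genes. Ranks were cut into 5 bins of 29 cells. A separate order was made from 17 meiosis genes alone, which holds no oocyte gene, and its ranks followed the first with a rho of 0.793. Neither order is a measured time. Reads per cell had a rho of 0.238 with the first order and 0.045 with the meiosis order, and the bin medians ran from 8388916 to 10736139 reads, the highest in the last bin. The share of mitochondrial reads had a rho of 0.267 with the first order and 0.521 with the meiosis order, and the number of genes detected 0.295 and 0.169. From the first bin to the last, the median mitochondrial share went from 5.29 to 7.74% and the median number of genes from 8771 to 10386. The share of spike-in reads had a rho of -0.225 with the first order, with bin medians of 0.368% in the first, 0.512% in the fourth and 0.246% in the last, and a rho of -0.371 to -0.229 with the members.

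**Figure D1:**
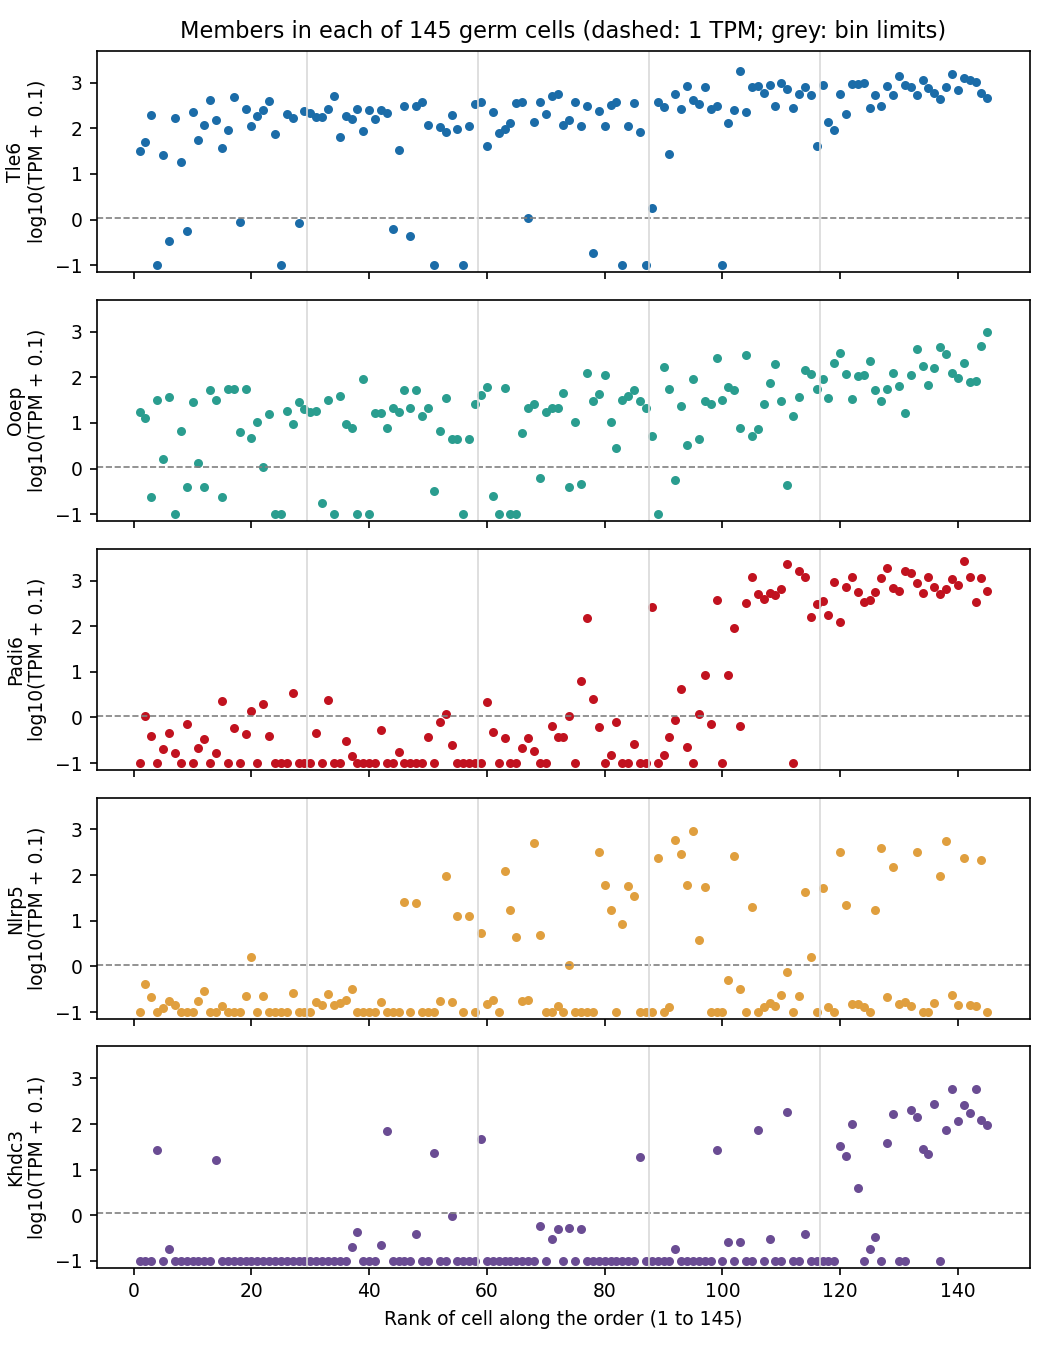
Level of each member, as log10(TPM + 0.1), in the kept cells ranked along the order from 18 genes, with 1 point per cell, the dashed line at 1 TPM and grey lines between bins of 29 cells. Tle6 and Ooep are present from the first ranks, Padi6 sits at 126.1 TPM or more in all 29 cells of the last bin, Khdc3 gathers in the last bin, and Nlrp5 is scattered among cells without it from the second bin on.

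Tle6 was present from the start and rose. It was detected in 23 of 29 cells of the first bin (79.3%) and in all 29 of the last. Its mean per bin was 136.9, 176, 213, 496 and 739 TPM from first to last. In the last bin its lowest, median and highest values were 91.3, 772 and 1531 TPM, against 0, 110.7 and 475 TPM in the first, so the 2 bins overlapped at the level of single cells.

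Ooep was also present from the start and rose, at a lower level. It was detected in 21 of 29 cells of the first bin (72.4%) and in 29 of 29 of the last, with bin means of 17.3, 18.5, 28.4, 62.9 and 187 TPM. Its last-bin values ran from 16.4 through a median of 110.2 to 999 TPM, and its first-bin values from 0 through 10.3 to 56.3 TPM, so these bins overlapped as well.

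Padi6 had the largest rise. Its bin means were 0.437, 0.196, 5.64, 359 and 866 TPM. It was detected in 4, 2, 4, 19 and 29 of 29 cells, and the 6 cells of the first 2 bins that passed 1 TPM held only 1.1 to 3.34 TPM, from 5 to 26 estimated reads. In the last bin its lowest, median and highest values were 126.1, 705 and 2680 TPM. No cell of the first 2 bins overlapped that range.

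Khdc3 came last. Its bin means were 1.5, 3.28, 2.35, 9.84 and 104.8 TPM, with 2, 2, 2, 3 and 19 cells detecting it. The last bin held 0 at the lowest, a median of 33.7 TPM and 585 TPM at the highest. The 4 early cells with Khdc3, in the first 2 bins, held 15.8 to 70.7 TPM on at most 308 estimated reads and no Zp3. The cell with the most, cell 47, had rank 43. In the meiosis order the 4 cells had ranks 18, 47, 97 and 98, so 2 of them, cell 47 included, were early in the first order alone.

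Nlrp5 rose earlier and then stayed in a minority of cells. Its bin means were 0.097, 5.94, 40.4, 86 and 82.1 TPM, and 1, 5, 12, 11 and 11 of 29 cells detected it. Some of these libraries matched closely, and the highest correlation (r) between any 2 kept libraries was 0.992, on log2(TPM + 1). In the second bin, ranks 46 and 48 held 25.1 and 24.9 TPM of Nlrp5 and 52.5 and 52.4 TPM of Ooep. Their shares of spike-in reads were 0.236 and 0.234%. Ranks 55 and 57 held 12.35 and 12.55 TPM of Nlrp5 and 4.44 and 4.32 TPM of Ooep. In the third bin, ranks 65 and 69 held 4.37 and 4.70 TPM of Nlrp5. Libraries below 1 TPM of Nlrp5 matched closely too. Ranks 40 and 38 held 254 and 262 TPM of Tle6 and no Ooep. Ranks 44 and 47 held 21.3 and 21.6 TPM of Ooep. Ranks 26 and 30 held 211 and 217 TPM of Tle6, and ranks 71 and 72 held 519 and 562 TPM. Whether such pairs are separate cells was not tested. Fewer distinct cells may therefore lie behind the counts, shares and intervals of all members and their combinations. In the last bin the median of Nlrp5 was 0.058 TPM and its highest value 553 TPM. The share of the last bin, 37.9% (20.7 to 57.7%), did not exceed that of the third, 41.4% (23.5 to 61.1%).

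**Figure D2:**
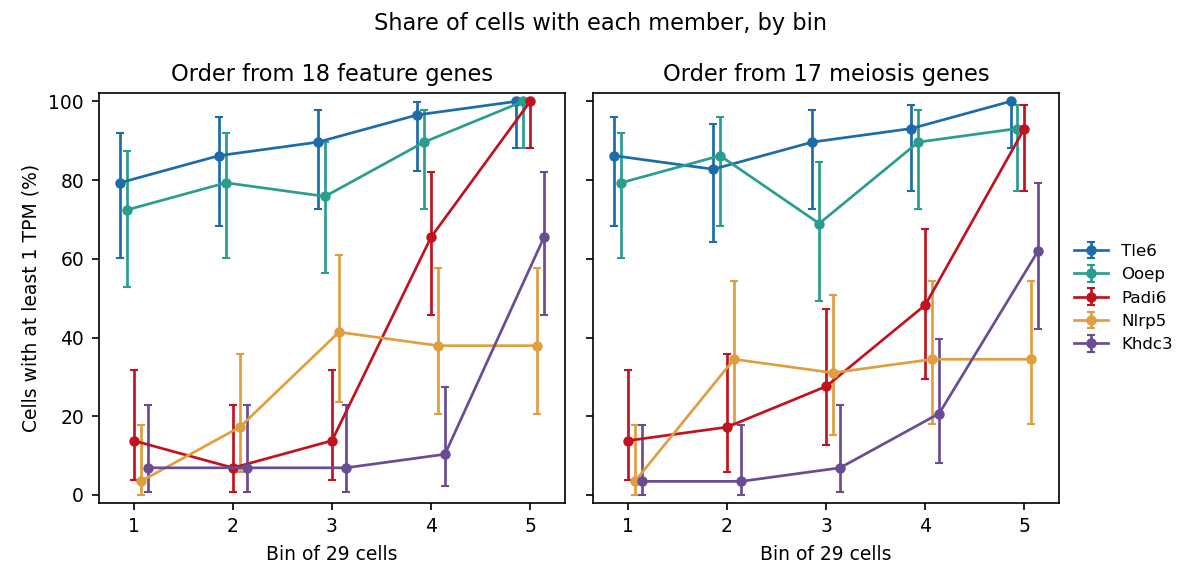
Share of cells with at least 1 TPM of each member in bins of 29 cells, for the order from 18 genes (left) and from 17 meiosis genes (right), with exact 95% intervals as bars. Padi6 climbs to 100% and 93.1% in the last bin and Khdc3 to 65.5% and 62.1%, while Nlrp5 stays at or below 41.4% in every bin of both orders.

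The order of onset was read as the rank at the centre of the first window of 21 cells in which at least 50% detected the gene. Tle6 and Ooep met this at rank 11, the first rank possible, so no onset could be placed for them within these cells. Padi6 met it at rank 97, after 66.9% of the cells, and Khdc3 after 86.9%. With the meiosis order these were 70.3% and 81.4%. Nlrp5 met it at rank 85, after 58.6%, with a highest window of 61.9%, but in the meiosis order no window passed 42.9%, and with windows of 31 cells in the first order none passed 48.4%. Its place in the order of onset therefore depended on how cells were ranked and on the width of the window. Padi6 before Khdc3 held in both. A limit of 0.1 TPM, which counts the traces, put Padi6 at rank 11.

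Between the last 49 cells of the order and the first 48, all 5 members were at least 2-fold higher, on log2 of mean TPM with a pseudocount of 1. In the same comparison 18.3% of 19796 genes tested were at least 2-fold higher, 21.6% were at least 2-fold lower, and the median of all was -0.15. Tle6 went from 159 to 667 TPM, a log2 ratio of 2.06, and Ooep from 19.2 to 140.6 TPM, a log2 ratio of 2.81. With spike-in scaling the Tle6 and Ooep ratios were 2.82 and 3.68, and from mean log2 values 2.83 and 2.98. Padi6 went from 0.336 to 719 TPM, a log2 ratio of 9.07, which no other tested gene exceeded at this pseudocount. Its early mean lies below the pseudocount, and the ratio was 6.14 with a pseudocount of 10 and 10.69 with 0.1. Nlrp5 went from 1.12 to 56.5 TPM, a log2 ratio of 4.76 that 71 tested genes exceeded. This size depended on the setting, with 1.81 in the meiosis order, 1.89 from mean log2 values and 2.58 with a pseudocount of 10. Khdc3 went from 2.39 to 67.9 TPM, a log2 ratio of 4.34 that 110 exceeded. The Khdc3 ratio was 5.19 without cell 47, 2.65 with a pseudocount of 10, 2.60 from mean log2 values and 5.93 with spike-in scaling, so its size depended on the setting and its direction did not. With mitochondrial genes and spike-ins taken out of the TPM the log2 ratios were 2.09 for Tle6, 2.83 for Ooep, 9.25 for Padi6, 4.82 for Nlrp5 and 4.35 for Khdc3.

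The commonest combination was Tle6 with Ooep and nothing else, in 41 cells. Adding Padi6 gave 19 cells, and adding Padi6 and Khdc3 gave 14. Tle6 and Ooep with Nlrp5 were found in 13 cells, and with Padi6 and Nlrp5 in another 13. Tle6 stood alone in 11 cells and Ooep alone in 7, and both counts hold a pair of the closely matching libraries. All 5 members were present in 7 cells (4.83%, 1.96 to 9.69%) and none in 3 cells. The number with all 5 depended on the limit, with 15 cells at 0.1 TPM and 29 at 1 estimated read, so the interval does not cover its uncertainty. The remaining combinations were held by 5 cells or fewer each.

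**Figure D3:**
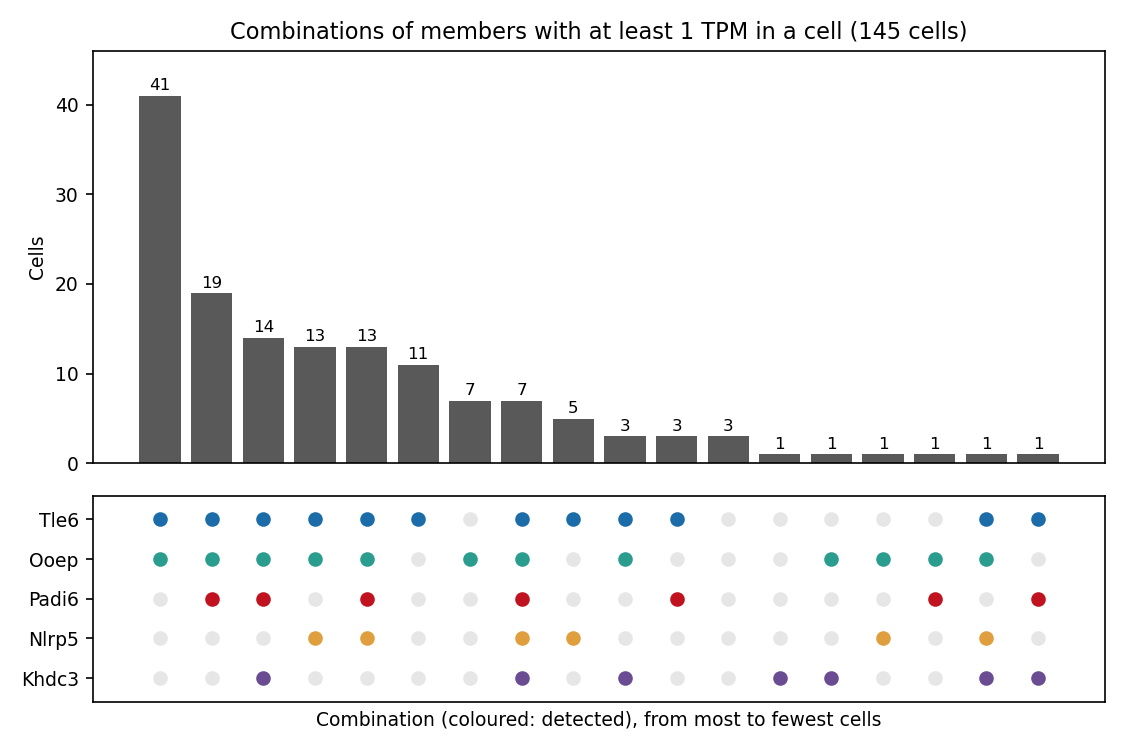
Number of cells (bars) with each combination of members at 1 TPM or more (coloured dots), over the kept cells. Tle6 with Ooep alone leads with 41 cells, and the full set of 5 is held by 7 cells.

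The combinations were read as chains of genes. The chain over all 5 members, in order of their shares of cells, held in 64.8% of cells. In 86.9% of cells the members seen obeyed the chain Tle6, Ooep, Padi6, Khdc3, where a later gene was present only with all earlier ones. With Nlrp5 in place of Khdc3 the chain held in 77.2%, and with Nlrp5 in place of Padi6 in 76.6%. The single shares of the genes alone put many cells in such chains, since a gene in nearly every cell is seldom missing beside another. The percentage to be had from the single shares was not computed. The chain percentages are therefore not read as a result about the members. Padi6 without Tle6 was seen in 1 cell and Tle6 without Padi6 in 74. Padi6 without Khdc3 was seen in 36 cells and Khdc3 without Padi6 in 6. Padi6 and Nlrp5 shared 20 cells, 34.5% of the Padi6 cells and 50% of the Nlrp5 cells. Khdc3 and Nlrp5 shared 8 cells, 28.6% of the Khdc3 cells and 20% of the Nlrp5 cells.

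The 7 cells with the whole set all lay in the last bin, from rank 120 on. Their Tle6 values were 570.4, 205, 545, 536, 814, 1292 and 607 TPM in rank order, and their Padi6 values were 126.1, 705, 682, 875, 644, 2680 and 1165 TPM. Nlrp5 was at 315, 21.6, 154, 327, 553, 232 and 218 TPM in them, and Khdc3 at 33.7, 20.01, 164, 139.3, 74, 260 and 121.5 TPM. Ooep was at 339.6, 116.9, 121.5, 423, 320, 210 and 489 TPM. The share of the summed TPM of the 5 genes was a median of 40.9% for Padi6, 27.6% for Tle6, 13.3% for Ooep, 9.25% for Nlrp5 and 4.67% for Khdc3, so the RNAs were not at equal levels even where all were present. On CPM, which is not per length, the medians were 41.4% for Padi6, 19.4% for Nlrp5, 16.9% for Ooep, 15.2% for Tle6 and 2.72% for Khdc3, so the order of the genes between the first and the last changed. These cells had a median of 13321225 reads, above the 9498860 of all cells, and after 1000000 reads were drawn from each cell, 9 cells had a read of all 5 members and 2 had a read of none.

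The makeup of the set shifted along the order. In the first bin a median of 92.2% of the summed TPM was Tle6 and 7.80% was Ooep, over the 26 cells with a sum of at least 10 TPM. In the last bin Padi6 took a median of 41.5%, Tle6 34.4%, Ooep 6.69% and Khdc3 1.87%.

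Nlrp5 was present in some late cells and not in others. In the last 2 bins 22 cells had it, with a median of 186 TPM and a range of 1.54 to 915 TPM, and 36 did not, with a highest value of 0.665 TPM and no read at all in 14. The median rank was nearly the same in the cells with it and in those without. Padi6 was detected in 18 of the 22 and in 30 of the 36, and Khdc3 in 7 and in 15. Zp2 was detected in all 58. Zp3 was detected in 14 of the 22, with a median of 121.1 TPM, and in 29 of the 36, with a median of 291 TPM. Median reads per cell were 11055890 with Nlrp5 and 9525504 without. A pseudogene, Nlrp5-ps, could share reads with Nlrp5, and its highest value was 11.4 TPM in the cells with Nlrp5 and 3.53 TPM in those without. Over bins 3 to 5 these were 37.1 and 7.87 TPM, with Nlrp5-ps detected in 5 of 34 and 5 of 53 cells. In the first order Nlrp5-ps reached the 50% window at rank 27, with a highest window of 57.1%. No window passed 38.1% in the meiosis order. Its part in the early Nlrp5 values was not tested. In the last bin Khdc3 was present in 19 cells, at a median of 118.7 TPM, and absent in 10, of which 8 had no read, with median reads of 11200876 and 9869072.

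Across the kept cells the highest Spearman's rho between members was that of Tle6 and Padi6, at 0.560, followed by Ooep and Padi6 at 0.491. The lowest were Nlrp5 with Khdc3, at 0.106, and Nlrp5 with Ooep, at 0.136. Within the last 2 bins, between which both genes still rose, Padi6 and Khdc3 had a rho of 0.551 and Tle6 and Padi6 of 0.446. Tle6 and Ooep, the pair found in most cells, had 0.00089 there, and Nlrp5 had between -0.048 and 0.154 with the other members. Both values of a pair come from 1 library, so depth enters both: the rho of a member with reads per cell ran from 0.153 for Khdc3 to 0.403 for Padi6.

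The protein partners of the complex and the NLRP genes near it were measured beside the members. Zbed3, a reported member of the complex, went from 21.6 to 358 TPM between these sets, a log2 ratio of 3.99, and was detected in 81.4% of cells. Nlrp4f went from 6.76 to 655 TPM, a log2 ratio of 6.40. Nlrp14, one of the 18 ordering genes, so that its call was partly fixed by the order, had a log2 ratio of 6.13. Cfl1, the actin-severing cofilin, had 1.33, and Uhrf1 and Ube2d3, a pair of ubiquitin pathway genes, had 0.16 and -0.10. Nlrp2 reached 1 TPM in 4 cells and was not among the 6 of 7 genes tested, of which 4 were at least 2-fold higher, Nlrp14 included, and none was at least 2-fold lower, beside 18.3% and 21.6% of all genes tested.

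Close relatives of the members took different courses. Of 13 relatives 9 were tested and 3 were at least 2-fold higher, beside 18.3% of all genes tested, too few genes to set them apart. Padi2, another deiminase, had a log2 ratio of 4.67 and was detected in 48 cells, while Padi1 and Padi3 reached 1 TPM in 1 and 5 cells. Khdc1b had a ratio of 3.27 and Dppa5a, a KH-domain gene of pluripotent cells, 1.34. The Groucho genes Tle1, Tle2, Tle3, Tle4 and Aes had log2 ratios of -0.60, 0.97, -0.10, 0.22 and 0.55, beside 2.06 for Tle6.

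The 10 zona and oocyte genes were all at least 2-fold higher in the last 49 cells, but 6 of them helped to make the order, so the meiosis order was used to place the members among them. There Zbed3 reached the 50% window at rank 22, Nlrp4f at rank 27 and Zp2 at rank 33. Btg4 reached it after 69.7% of the cells, Zp3, H1foo and Padi6 after 70.3%, Zp1 and Gdf9 after 72.4%, Npm2 and Nlrp14 after 73.8%, Khdc3 after 81.4% and Zar1 after 86.2%. Bmp15 and Oosp1 did not reach it, with highest windows of 38.1% and 14.3%. Of the genes that reached it, Padi6 thus stood with the zona genes Zp1 and Zp3 and behind Zp2, and Khdc3 near the end. The follicle factors Figla, Nobox, Sohlh1 and Lhx8 were at rank 11, with Tle6 and Ooep. Of 6 follicle factors, 5 of which, Taf4b included, helped to make the first order, none was at least 2-fold higher in the last 49 cells of the first order and 1, Taf4b, a subunit of the TFIID complex, was at least 2-fold lower, with a log2 ratio of -1.78, beside 18.3% and 21.6% of all genes tested. Of the 17 meiosis genes, 3 of which helped to make that order, none was at least 2-fold higher and 10 were at least 2-fold lower, beside 18.3% and 21.6% of all genes tested.

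**Figure D4:**
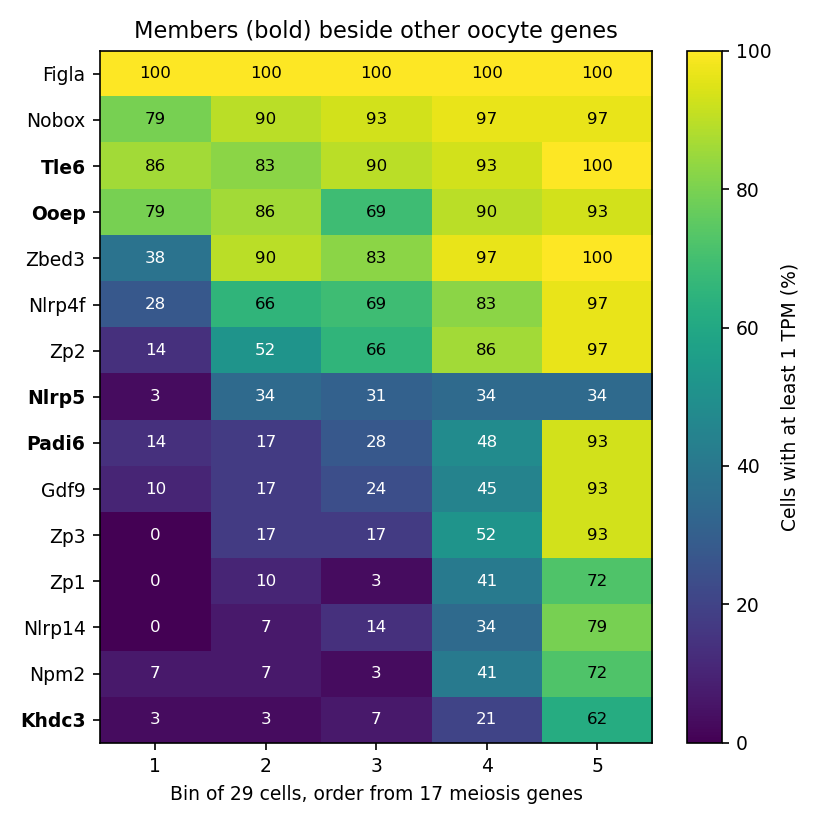
Share of cells, in percent, with at least 1 TPM of each gene in 5 bins of 29 cells ranked by 17 meiosis genes, with the members in bold. Padi6 goes from 13.8% to 93.1% beside Gdf9 and Zp3, Khdc3 reaches 62.1% in the last bin, and Nlrp5 stays near 34.5% from the second bin on.

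Every cell with Padi6 also had Nobox, Figla and Lhx8, and every cell with Nlrp5 had Nobox, Sohlh1 and Figla. Figla itself was in every kept cell, and Nobox without Padi6 was seen in 74. Zbed3 was present in 39 of the 40 Nlrp5 cells, Nlrp4f in 38, Zp2 in 33 and Zp3 in 18. Over all kept cells these genes were detected in 81.4%, 68.3%, 62.8% and 35.9%. Padi6 and Zp3 shared 42 cells, with 16 cells that had Padi6 alone and 10 with Zp3 alone. In the 33 cells with all 3 zona genes, Tle6 and Padi6 were present in 33, Ooep in 32, Khdc3 in 21 (63.6%, 45.1 to 79.6%) and Nlrp5 in 13 (39.4%, 22.9 to 57.9%). In the 50 cells with no zona gene, Tle6 was present in 41, Ooep in 37, Padi6 and Nlrp5 in 5 each (10%, 3.33 to 21.8%) and Khdc3 in 4 (8%, 2.22 to 19.2%). Between the 2 sets of cells the nearest limits of the Nlrp5 intervals lay close, at 21.8 and 22.9%, and those of Padi6 and Khdc3 lay further apart. The intervals cover counting error only and count closely matching libraries as separate cells. No test between the sets was made.

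Among 14744 other genes, the pattern most like the summed members was that of Ldhb, a lactate dehydrogenase subunit, with a Spearman's rho of 0.769 over the kept cells. Nlrp4f followed with 0.761 and Ube2c, an enzyme of the anaphase-promoting pathway, with 0.757. The first 10 also held Tmsb10 at 0.739, Tcl1b2 at 0.736, Tsga10ip at 0.734 and 4 genes named by clone. The median rho over all these genes was 0.054 and the 95th percentile 0.411. For single members the closest were Zp3, Zp1 and Dpf3 for Padi6 at 0.793, 0.770 and 0.746, Ube2c, Dppa3 and Pfn1 for Ooep at 0.656, 0.645 and 0.630, Oas1c, Zp1 and Pla1a for Khdc3 at 0.536, 0.529 and 0.522, and Fhl3, AC123856.2 and Zbed3 for Nlrp5 at 0.434, 0.430 and 0.426. The 3 closest to Tle6 were genes named by clone, the first at 0.677.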

How the data were processed

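Libraries of 146 single cells were made by Smart-seq2, with ERCC spike-ins added. The authors quantified reads with Salmon, with its sequence bias option, against mm10 plus the spike-ins, and for every cell deposited a table of gene symbols with TPM and with estimated counts. The TPM deposited sum to a fixed total, mitochondrial genes and spike-ins counted, so a large rise of other RNA lowers a level. The study's limits (over 500000 reads, under 35% mitochondrial and 4% spike-in reads) were passed by 146 of 146 cells here. The study kept fewer cells with them and the sources used here do not name those it dropped, so some may be among the kept cells. The library without Ddx4 was left out. No doublet call was made on the hand-picked cells.

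Genes counted as detected at 1 TPM. Cells were ordered by the first component of standardized log2(TPM + 1). Ratios used a pseudocount of 1 TPM and genes whose mean reached 1 TPM in the first 48 or the last 49 cells. Genes named are the members, the listed partners, relatives, oocyte, follicle and meiosis genes and, among genes in at least 20 cells, the 10 most like the members' sum and the 3 most like each. The members and lists were chosen with earlier results of these data known. Python 3.11.15, pandas 2.3.3, NumPy 2.4.6, SciPy 1.17.1 and Matplotlib 3.10.9 were used. The calculations were tested on simulated data. Alternatives were other detection limits, cells, orders, windows, scalings and pseudocounts, and leaving out each cell.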

Additional observations from a re-analysis of the deposited data

How the results depend on the processing

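No paired analysis was possible because all cells form 1 group and the labels pair none. The closely matching libraries named with the bins of Nlrp5 were not merged in any setting. Leaving out 1 cell at a time kept the other such pairs, so those ranges do not cover them. Leaving out cells under 3000000 reads removed no kept cell. All 5 members stayed at least 2-fold higher in the last 49 cells under every scaling and pseudocount tried and in the meiosis and variable gene orders (the order without zona genes was used for onset alone), and with each cell left out, where the log2 ratio ran from 1.98 to 2.09 for Tle6, 2.61 to 2.95 for Ooep, 8.99 to 9.18 for Padi6, 4.48 to 5.17 for Nlrp5 and 4.10 to 5.19 for Khdc3. The share of tested genes at least 2-fold higher became 4.83% with a pseudocount of 10, 10.9% with mean log2 values, 6.89% without a filter and 30.1% after division by spike-in TPM, which moved the median of all genes to 0.43. Relative to the median of all genes, the lowest log2 ratio over these settings was 1.77 for Tle6 and 1.88 for Nlrp5, both in the meiosis order.

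Shares of cells depended on the detection limit. At 0.1 TPM they were 91.7% for Ooep, 62.1% for Padi6, 38.6% for Nlrp5 and 29.7% for Khdc3, with 15 cells holding all 5. At 1 estimated read they were 95.2% for Tle6, 92.4% for Ooep, 66.9% for Padi6, 61.4% for Nlrp5 and 31.7% for Khdc3, with 29 cells holding all 5. At 10 TPM Ooep fell to 69% and Padi6 to 31%. After 1000000 reads were drawn from each cell, 49% had a Padi6 read, 34.5% an Nlrp5 read and 24.1% a Khdc3 read. The shares of the trio at 1 read thus depended on depth. The onset rank of Padi6 was 11 at 0.1 TPM, and that of Nlrp5 was 60 in the order without zona genes and was not reached in the meiosis and variable gene orders or with windows of 31 cells.

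The median rho over pairs was 0.342, with 0.328 to 0.360 on leaving out each cell, 0.448 with spike-in scaling and 0.232 in the 7 cells with all members, where Padi6 and Nlrp5 had -0.25. The share of summed TPM, over all cells with a sum of at least 10 TPM instead of those 7, was 64.3% for Tle6, 0.188% for Padi6, 0.00825% for Nlrp5 and 0% for Khdc3. On CPM, which is not per length, the share of Tle6 was 15.2%.

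These cells are 1 litter without animals named, so the spread between animals is unknown.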
